A study of Glycine max with 8 samples.

Results

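Soybean seed imbibed for 16 h was compared with dry seed on 5 of the 8 arrays of the series, 3 of seed imbibed for 16 h and 2 of dry seed, chosen by the sample titles. All were whole seeds of Glycine max, cultivar Suzumaru. Seeds to be imbibed were disinfected with 1% hypochlorous acid, rinsed, and left in darkness on wet cotton at 25 °C, and those of 16 h were collected where they had germinated or had taken up more than 0.33 g of water. The labels give the dry seed as 0 h and do not say whether it was disinfected. Time and selection on water uptake therefore go together in the 16 h group. The other 3 arrays, of seed imbibed for 8 h with a minimum water uptake of 0.06 g, were not compared here. They entered the estimate of spread in the probe-by-probe tests. Per the labels, the 20 to 25 seeds collected per stage were split into 3 portions before milling and extraction, so the spread between arrays is that among portions of 1 lot of seeds, which may be technical. A whole seed holds seed coat, cotyledons and embryonic axis together. A fall in signal of such a sample cannot be told apart into fewer cells of a type and less RNA per cell.

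A mature dry seed carries stored messenger RNA that was made while the seed developed and dried. Imbibition, the uptake of water that begins germination, restarts respiration and translation. Stored messages are used and degraded, and new ones are transcribed before and as the root emerges. The series set out to describe soybean in the first hours of imbibition for use in food, and the comparison asks how far the stored transcript population had been exchanged by 16 h.

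Each array carried 42748 soybean probes, 1 for each cDNA or EST sequence, and was read in 1 colour. Precision is limited by how few arrays there are, and the spread between lots of seeds was not measured. The files give sequence accessions or clone names for the probes. Of these, 0 were found among the 59048 genes of the RefSeq table, so genes are not named and the label of whole seed was not checked against seed markers. Results are given for groups of probes and for 4 single probes. Levels are log2 signal relative to the 75th percentile of the soybean probes on the same array. Beside them stand levels relative to E1A spike-ins, viral transcripts added to the RNA for labelling, which follow signal per amount of added control. The first scale does not give a share of the summed signal. Against the spike-ins the 75th percentile was 1.45 log2 higher at 16 h, and the summed soybean signal 0.40 log2 higher. A probe that kept its share of the signal therefore stands lower at 16 h on the first scale. A probe was tested where the scanner software placed it well above background on all 3 of the 16 h arrays or on both dry arrays, which 28775 probes (67.3% of the soybean probes) met.

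The transcript population was much less dominated by a few messages at 16 h than in dry seed. The 100 brightest probes of each array held 20.97%, 20.6% and 23.4% of the summed soybean signal on the 16 h arrays, against 37.2% and 37.3% on the dry arrays. Every 16 h array thus lay below both dry arrays. The mean was 21.6 ± 1.5% at 16 h (SD, n = 3) and 37.3 ± 0.076% in dry seed (SD, n = 2), a difference of -15.6 percentage points. The 10 brightest probes alone held 5.93% to 8.13% of the signal at 16 h, against at least 11.7% in dry seed.

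Counted the other way, 50% of the signal was held by 1055, 1077 and 965 probes at 16 h, against 294 and 293 probes in dry seed. The 16 h mean of 1032 ± 59 probes was 3.52 times the dry mean of 293.5 ± 0.71. Brightness also depends on the probe, so these orders within an array do not rank transcripts by abundance. Within each slide, a glass carrier of 4 arrays, the direction was the same.

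**Figure D1:**
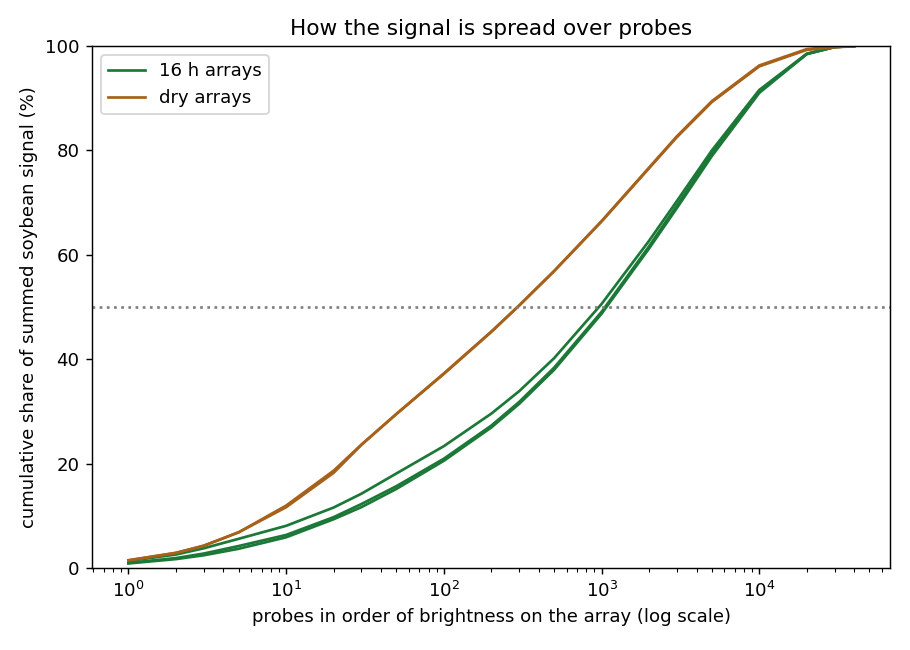
Cumulative share of the summed soybean signal (percent) against the number of probes taken in order of brightness on each array (log axis), 1 line per array, with 50% dotted. Up to 20000 probes the 3 lines of 16 h seed lie below the 2 lines of dry seed, and they cross 50% at 965 to 1077 probes, against 293 and 294 in dry seed.

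More of the array gave signal at 16 h. Probes well above background numbered 31193, 31137 and 29413 on the 16 h arrays, against 20157 and 23362 on the dry arrays. The groups did not overlap, with a mean of 30581 ± 1012 at 16 h (SD, n = 3) and 21759.5 ± 2266 in dry seed (SD, n = 2). The detection limits also differed between arrays. The dimmest probe called well above background had 15.3, 16.6 and 15.2 intensity units at 16 h, against 27.8 and 15.4 in dry seed. The brightest probe not so called had 22.4, 25.2 and 23.2 units at 16 h, against 40.2 and 22.7 in dry seed. Dry replicate 1 was thus the array with the highest limit. Counting a probe only above the highest of the 5 limits on the 75th percentile scale, an alternative chosen after seeing the data, gave 22889, 22769 and 22712 probes at 16 h, against 20157 and 20997 in dry seed. The difference was then 2213 probes, against 8821.5 without the common limit, and the groups still did not overlap. With the highest limit taken on the spike-in scale the counts were 28067, 29178 and 27368 at 16 h, against 20157 and 20925 in dry seed.

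The soybean signal also stood higher against the spike-ins at 16 h. It was -4.15, -3.76 and -4.30 log2 at the 75th percentile, set against the spike-in mean, in 16 h seed, against -5.51 and -5.53 in dry seed. The difference was 1.45 log2, or 2.73-fold. The summed soybean signal differed less, with 12.17 ± 0.23 log2 above the spike-in mean at 16 h (SD, n = 3) and 11.76 ± 0.0080 in dry seed (SD, n = 2), a ratio of 1.32. Dry seed thus held a larger part of its signal in its brightest probes and a smaller part in the middle of the range. For each of 6 such array-wide measures the two-sided exact permutation test gave p = 0.2, which is the smallest value that 3 against 2 arrays allow, and 0.2 after Benjamini-Hochberg adjustment over the 6. This design cannot pass a threshold of 0.05 on a single measure. The median of the negative controls was 3.62, 3.92 and 3.52 intensity units on the 16 h arrays, against 7.10 and 3.55 on the dry arrays, and its part in these differences was not tested.

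**Figure D2:**
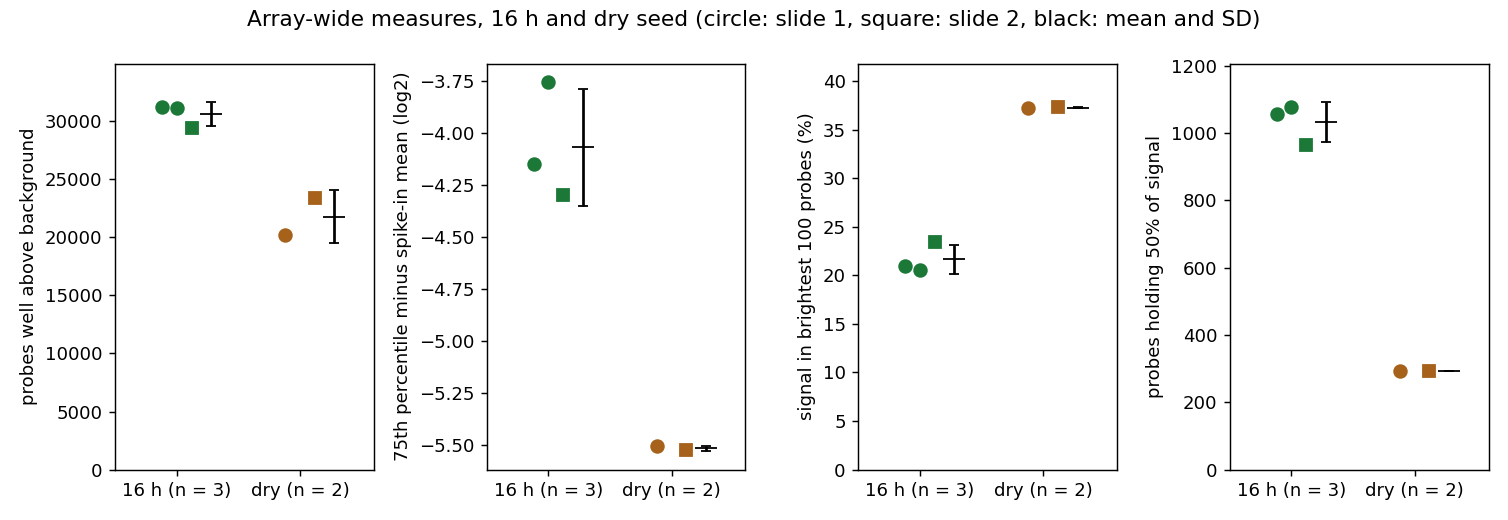
Each point is 1 array (circles slide 1, squares slide 2), with the mean and SD in black, for the number of probes well above background, the 75th percentile relative to the spike-ins (log2), the share of signal in the brightest 100 probes (percent) and the number of probes that hold 50% of the signal. The 16 h arrays do not overlap the dry arrays in any of the 4 measures.

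The order of the transcripts changed between the stages far beyond the spread among portions of a stage. The spread between lots of seeds was not measured. On the 5 arrays 19600 probes were always well above background, and over these Spearman's rho between a 16 h and a dry array was 0.808 to 0.824 in 6 pairs. It was 0.981 to 0.990 between 16 h arrays and 0.987 between the dry arrays. These are correlations across probes, which are not independent replicates. Of the 1000 brightest probes of an array, 63.1% to 65.2% were shared between a 16 h and a dry array. The shared part was 86.4% to 90.5% between 16 h arrays and 94.7% between the dry arrays. Among the 100 brightest, 52 to 63 were shared across stages, 80 to 88 within 16 h, and 95 within dry seed. On the 75th percentile scale, 55.7% to 61.4% of the 19600 probes differed by less than 2-fold between a 16 h and a dry array. Within a stage 97.8% or more did, and the median difference was 0.783 to 0.882 log2 across stages against 0.143 to 0.238 within them.

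The brightest stored messages fell as a group on both scales. To keep the noise of the array of choice out of the measured change, the 100 brightest probes were taken from 1 dry array. Their change was measured from the other dry array to the 16 h mean. Both dry arrays are portions of 1 lot, and the lists were still chosen for being bright in dry seed, which favours a fall. Chosen on dry replicate 1, 94 of the 100 were at least 2-fold lower at 16 h relative to the 75th percentile, 65 at least 4-fold lower and 0 at least 2-fold higher. Chosen on dry replicate 2, 97 were at least 2-fold lower, 59 at least 4-fold lower and 0 at least 2-fold higher. Their median changes were -2.46 and -2.28 log2. All 100 of each list were still detected on each array of 16 h seed. Against the spike-ins the median changes were -1.0 and -0.85 log2, with 50 and 47 of 100 at least 2-fold lower and 1 and 0 at least 2-fold higher. For these messages the direction was therefore the same on both scales, while its size was not.

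In the wider group of the 1000 brightest probes of dry seed, the scales gave different pictures. Relative to the 75th percentile, 699 and 698 of the 1000 were at least 2-fold lower at 16 h, against 9 and 5 at least 2-fold higher, with medians of -1.43 and -1.41 log2. On the spike-in scale the medians were 0.023 and 0.033 log2, with 202 and 209 probes at least 2-fold lower and 112 and 127 at least 2-fold higher. Probes bright at 16 h were also lower as a group relative to the 75th percentile. Their medians were -1.36, -1.44 and -1.35 log2 for the 100 brightest of each 16 h array. Of the 100 brightest of 1 array at 16 h, measured on the other arrays, 10 were at least 2-fold higher than in dry seed for each of the 3 arrays of choice. Of these, 7 were at least 4-fold higher, while 56 to 61 of the 100 were at least 2-fold lower (75th percentile scale). Against the spike-ins 27 to 37 of the 100 were at least 2-fold higher and 13 to 21 at least 2-fold lower, with medians of 0.13, -0.14 and 0.21 log2 for the 3 arrays of choice. On all dry arrays 98 to 100 of them were well above background, so nearly all of the brightest messages at 16 h were already detected in dry seed.

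Probe by probe, 8882 probes were higher at 16 h (30.9% of those tested) and 9710 lower (33.7%) relative to the 75th percentile (limma, Benjamini-Hochberg adjusted p under 0.05). The median change of all tested probes was -0.038 log2. The 16 h and dry arrays did not overlap in 38.8% of tested probes in the higher direction and in 42.0% in the lower. These shares were 79.4% and 6.05% on the spike-in scale. On the spike-in scale limma called 19964 higher (69.4%) and 1072 lower (3.73%), with a median change of 1.41 log2. All 8882 probes higher on the first scale were also higher on the second, and all 1072 probes lower on the second were also lower on the first. The scales differ by 1 constant per array, which puts each change about 1.45 log2 higher on the spike-in scale. This nesting of directions therefore follows from the centring and is not separate evidence. Among the 9710 falls on the 75th percentile scale, a further 6733 were not called against the spike-ins and 1905 were higher there. The 1072 are therefore the falls called on both scales (3.73% of tested probes), and the 8882 the rises (30.9%). Of the 8882, 3892 were detected on all 5 arrays. The other 3693 and 1297, detected on no dry array and on 1 dry array, passed the filter only through 16 h seed, where they are bright.

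Rises made up 47.8% of all calls on the 75th percentile scale and 94.9% on the spike-in scale. Their share was 32.7% with median centring, 64.9% where only probes detected on all 5 arrays set the percentile and 33.8% with normexp background correction. It was 30.2% where only the 19600 probes detected on all 5 arrays were tested and 34.5% without the filter. With normexp limma called 2199 higher and 4310 lower relative to the 75th percentile, and within slide 2, which has 1 array at 16 h and 1 dry array, it called 0 and 0 on that scale (5056 and 4287 at an unadjusted p under 0.05). On the spike-in scale slide 2 alone gave 6651 higher and 261 lower, and without dry replicate 1 or 2 the falls on both scales numbered 655 or 660.

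**Figure D3:**
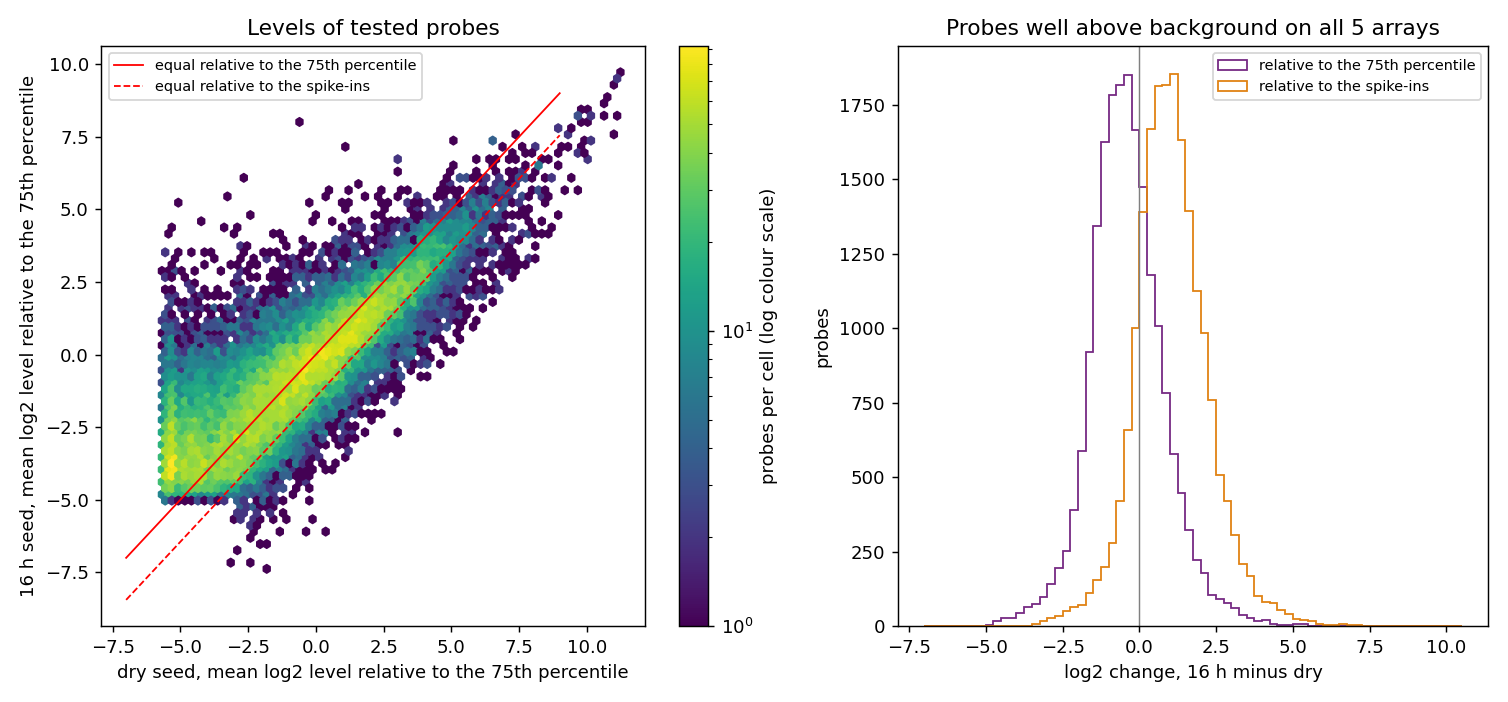
Left, mean log2 level of each tested probe at 16 h (vertical) against dry seed (horizontal), coloured by the number of probes, with lines of equal level on the 75th percentile scale (solid) and the spike-in scale (dashed, 1.45 log2 lower). Right, log2 changes of the 19600 probes detected on all 5 arrays on both scales, with medians of -0.45 and 1.00.

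How a probe had passed the filter went with its direction. Of the tested probes, 19600 were detected on each of the 5 arrays, 9061 on every 16 h array but not on both dry arrays, and 114 on both dry arrays but not on every 16 h array. The probes of these last classes passed through the stage where they are bright, so their direction is largely set by the filter and is given as a description. Entry to the 19600 was set mainly by detection in dry seed, where 9061 probes of 16 h seed missed it and 114 of dry seed missed detection at 16 h, so rises from low dry levels are left out of it. Among the 19600, 3892 were higher (19.9%) and 9191 lower (46.9%) relative to the 75th percentile, with a median change of -0.45 log2. On the spike-in scale 11870 of them were higher (60.6%) and 1002 lower (5.11%), with a median of 1.00 log2. Called on neither scale were 388 of the 19600 (1.98%). Since each change differs by about 1.45 log2 between the scales, a probe unchanged on the first is changed on the second. This low share therefore follows largely from the centring and does not count the transcripts that changed.

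Among the 19600, falls outnumbered rises at moderate sizes and rises prevailed at the extreme on the 75th percentile scale. Of the called probes, 2197 rose by 2-fold or more and 5743 fell by 2-fold or more. At 8-fold the counts were 205 and 357, at 16-fold 58 and 75, and at 32-fold 20 and 1. With spike-in centring 9765 rose and 715 fell by 2-fold or more. At 8-fold there were 1135 and 25, and at 32-fold 98 and 0.

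The direction also went with brightness. The 19600 probes were divided into 10 equal classes by the mean of the 2 group means. In the brightest class, 7.35% were called higher and 71.2% lower relative to the 75th percentile, with a median change of -0.98 log2. In class 4, counted from the dim end, 32.1% were higher and 32.8% lower, with a median of -0.072. From that class upward the median fell with each step in brightness. The dimmest class was again mostly lower, with 2.91% higher and 57.1% lower. The detection limits lay at -5.42, -5.49 and -4.92 log2 on the 16 h arrays, against -2.91 and -3.78 on the dry arrays. In the dimmest class the condition of detection on the dry arrays leaves little room for a rise. Relative to the spike-ins the median was above 0 in all 10 classes, at 0.47 log2 in the brightest, 1.38 in classes 3 and 4, and 0.58 in the dimmest. In the brightest class 40.3% were then higher and 11.3% lower, the largest share of falls among the 10 classes on that scale.

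**Figure D4:**
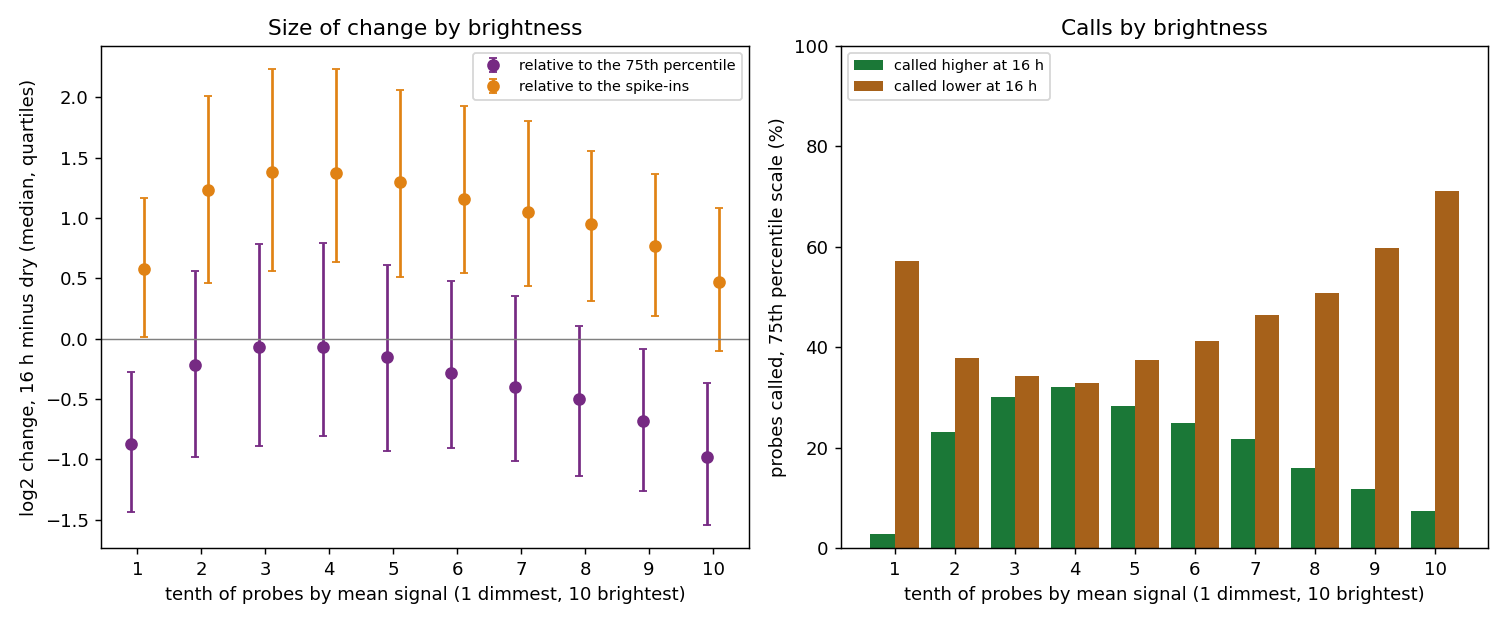
Left, median log2 change with quartiles in 10 equal classes of the 19600 probes by mean signal, on the 75th percentile scale and the spike-in scale. Right, percent of probes called higher and lower at 16 h on the 75th percentile scale, with 7.35% and 71.2% in the brightest class.

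In terms of signal, the probes that fell on the 75th percentile scale had made up most of the dry signal, whereas those that fell on the spike-in scale had not. The following shares describe groups chosen by the same contrast and carry no test. The 9710 probes that fell on the 75th percentile scale held 53.8%, 54.7% and 54.1% of the summed signal at 16 h, against 84.1% on each dry array. The 1072 probes lower on both scales held 5.86%, 7.89% and 6.36% at 16 h, against 26.4% and 26.2% in dry seed. The messages that were lower at 16 h whichever scale was used thus made up 26.3 ± 0.084% of the stored signal (SD, n = 2). The 8882 probes higher on both scales held 22.5%, 22.2% and 22.0% at 16 h, against 3.73% and 3.76% in dry seed. The 10183 tested probes called in neither direction on the 75th percentile scale held 23.3 ± 0.42% at 16 h (SD, n = 3) and 11.8 ± 0.032% in dry seed (SD, n = 2).

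Messages that appeared by detection were many but held little signal, and few disappeared. Detection on each 16 h array and on no dry array was met by 5760 probes, and the converse, detection on both dry arrays alone, by 22. The 5760 held 2.11%, 2.39% and 1.91% of the signal at 16 h, against 0.179% and 0.142% in dry seed. Most of the gain of 16 h seed thus lay in probes that dry seed already showed. The 5760 were chosen by being undetected in dry seed, so their direction is a description. Of the 3693 among them called higher by limma, where 30.9% of all tested probes were, the bound relative to the 75th percentile reached 2-fold for 1610, 8-fold for 314 and 32-fold for 51. The bound sets the mean at 16 h against the higher of each dry array's detection limit and the probe's own signal. The 22 probes seen only in dry seed, lower by the way they were chosen, had bounds whose median was at least 7.61-fold on the 75th percentile scale and at least 2.79-fold on the spike-in scale.

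These classes rested on the detection limits. With 1 limit common to the 5 arrays on the 75th percentile scale they held 2679 and 787 probes, and with 1 common limit on the spike-in scale 5821 and 47. The class gained at 16 h numbered 8888 without dry replicate 2. The class lost at 16 h numbered 204 without dry replicate 1, 190 without dry replicate 2 and 47 without 16 h replicate 2. Between them lay 3301 probes detected on all 16 h arrays and 1 dry array, which also passed the filter through 16 h seed. Of these, 39.3% were called higher and 10.997% lower relative to the 75th percentile, where 30.9% and 33.7% of all tested probes were. With spike-in centring 78.6% were higher and 0% lower, where the shares of all tested probes were 69.4% and 3.73%.

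CD417265.1_364 had the largest rise among probes measured in both stages. Its level relative to the 75th percentile was 7.91, 8.23 and 7.96 log2 in the 16 h portions, against -0.24 and -0.75 in the dry portions. In intensity this was 157262, 224874 and 115009 units at 16 h, against 177 and 126 units in dry seed. The 3 portions at 16 h lay within 0.32 log2 of each other, far above both dry portions. The rise was 8.53 ± 0.48 log2 (SE) on the 75th percentile scale and 9.98 ± 0.61 on the spike-in scale. Its limma adjusted p values were 0.000121 and 2.58e-05, and a call on both scales was a condition of its choice.

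CF922282.1_553 had the largest bound among probes not well above background in dry seed. It stood at 5.31, 5.16 and 5.19 log2 on the 16 h arrays, with little spread, against -4.12 and -5.95 on the dry arrays, where both values lie below the detection limit. Its mean was 5.22 ± 0.080 at 16 h (SD, n = 3) and -5.03 ± 1.3 in dry seed (SD, n = 2). It was at least 378-fold higher on the 75th percentile scale and at least 1032-fold higher on the spike-in scale. No p is given, since its detection at 16 h alone had chosen it.

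GMFL01-30-B13-R_365 had the largest fall among probes measured in both stages. It stood at -4.03, -1.40 and -2.63 log2 on the 16 h arrays, against 3.03 and 3.06 on the dry arrays. The 2 dry portions were nearly equal, whereas the 16 h portions spanned 2.64 log2, from 39.8 to 284 intensity units. The fall of -5.73 ± 0.86 log2 (SE), or -4.29 ± 0.87 relative to the spike-ins, had limma adjusted p values of 0.000993 and 0.00179. The SD among the 16 h portions was 1.32 log2 for this probe, against 0.17 and 0.080 for the 2 rising probes.

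BG882338.1_330 had the largest bound among probes not well above background at 16 h. It stood at -5.86, -5.68 and -6.90 log2 on the 16 h arrays, all below the detection limit, against -0.51 and -0.38 on the dry arrays. Its mean was -6.15 ± 0.66 at 16 h (SD, n = 3) and -0.45 ± 0.089 in dry seed (SD, n = 2). It was at least 28.4-fold lower on the 75th percentile scale and at least 10.4-fold lower on the spike-in scale, and here too the choice leaves no test. Within slide 2 alone CD417265.1_364 and GMFL01-30-B13-R_365 did not pass, each with a limma adjusted p of 0.0753. Detection, direction and a limma call on both scales, and size of change were conditions of their choice, so their p values are not independent support.

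**Figure D5:**
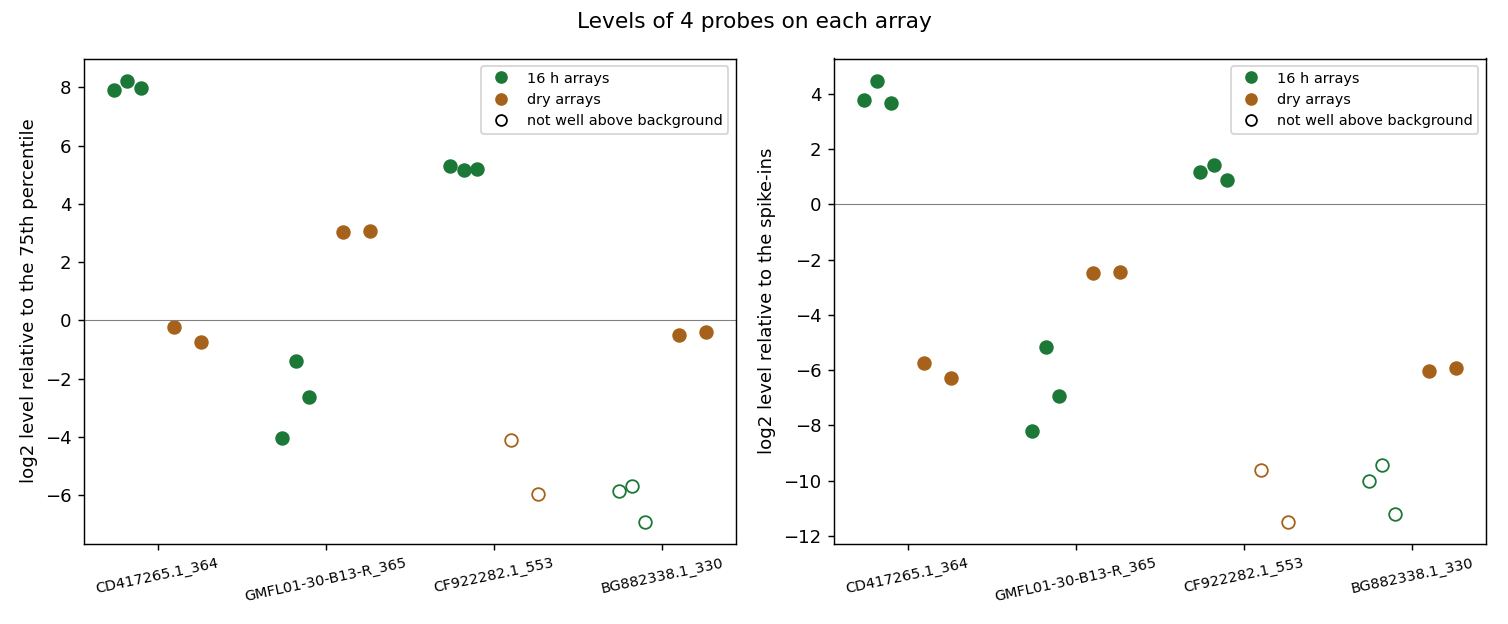
Log2 level of 4 probes on each 16 h array (green) and dry array (brown), relative to the 75th percentile (left) and to the spike-ins (right), with open symbols where the probe was not well above background. For each probe the 16 h and dry arrays are separate on both scales, and the 16 h arrays of GMFL01-30-B13-R_365 spread over 2.64 log2.

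The kind of sequence behind a probe, which the comparison did not use, went with differences in these shares, which were not tested. Of 7774 probes to GMFL01 clone sequences named R, 85.0% were tested, and of the tested ones 36.5% were higher and 31.6% lower relative to the 75th percentile. Of 1595 probes to GMFL01 clone sequences named F, 70.3% were tested, with 20.9% higher and 40.9% lower. The 33379 probes to other accessions had the lowest share tested, 63.0%. In their calls they lay between, with 29.6% higher and 34.0% lower. The files do not say what the letters stand for. Falls on both scales made up 3.31%, 4.64% and 3.81% of the tested probes of the R, F and other classes, which lie near the 3.73% of all tested probes.

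Portions of a stage varied little relative to the 75th percentile, and more at 16 h relative to the spike-ins. Over the 19600 probes the median SD per probe was 0.17 log2 at 16 h (n = 3) and 0.10 in dry seed (n = 2) on the first scale. On the spike-in scale it was 0.29 at 16 h and 0.10 in dry seed.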

How the data were processed

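Scanner files of 8 arrays (3 of 16 h, 3 of 8 h and 2 of dry seed) were used. Per the file headers, Agilent Feature Extraction 10.7.3.1 gave each spot an intensity after background subtraction and detrending, with no scaling between arrays; 200 ng of total RNA was labelled per the labels' protocols. The deposited value table holds log2 values that equal log2 of this signal minus the array's 75th percentile up to 0.00285, and served as an alternative. The 1417 control spots and 0 to 4 outlier spots per array were left out, and 0 soybean spots were saturated. Log2 signal was centred on the 75th percentile, or on the mean of 7 of 10 E1A probes (32 spots each) above background and unsaturated on all arrays. The linear model of limma (version 3.58.1, under R 4.3.3) had 1 mean for each stage, took all 8 arrays so that those of 8 h added to the estimate of spread, and left 5 residual degrees of freedom before eBayes moderation. Tests were 2-sided with Benjamini-Hochberg adjustment over 28775 probes. The fit was tested on simulated data. Exact permutation tests used scipy 1.17.1 in Python 3.11.15. Without gene names, the planned gene lists were not run. The 4 named probes are the largest rise and fall measured on all 5 arrays, with groups not overlapping and called on both scales, and the largest bound in each direction among probes detected in 1 stage and called on both scales. The comparison and these rules were chosen with earlier results of these data known. Alternatives changed background, centring, filter, slide, replicate block, arrays in the fit and detection flag.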

Additional observations from a re-analysis of the deposited data

Results flagged for a closer look

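Among 13 control probes with ETG names, which enter no comparison, 1 was above every negative control spot on all 5 arrays, and it was picked out for that. This probe, ETG10_236652, has 10 spots per array and had levels of 3.31, 2.72 and 3.70 log2 relative to the 75th percentile at 16 h, against 4.96 and 4.52 in dry seed, a difference of -1.50 log2. Relative to the spike-ins it stood at -0.83 at 16 h and -0.78 in dry seed, a difference of -0.053. The files do not say what it measures.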

How the results depend on the processing

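Higher counts are given before lower ones. Relative to the 75th percentile limma called 2199 and 4310 probes with normexp background, 11967 and 6463 with the percentile over detected probes, 8173 and 15490 without the filter, 4201 and 9706 over probes detected on all 5 arrays, and 0 and 0 within slide 2 (5056 and 4287 at an unadjusted p under 0.05), where no call on both scales was left either (0 and 0). Relative to the spike-ins it called 12401 and 1136 over probes detected on all 5 arrays and 6651 and 261 within slide 2. The rises on both scales over those probes numbered 4201. Leaving out 1 of the 8 arrays gave 7096 to 9323 higher and 7724 to 9960 lower probes on the first scale, and 16605 to 20390 and 655 to 1352 on the spike-in scale, with the same 655 to 1352 falls and 7096 to 9323 rises on both. With 1 dry array left out, the lone one is assumed to vary like the other stages. Quantile normalization, slide as a block, slide 1 alone, the 2 groups alone and the deposited values kept the counts on the 75th percentile scale within 1.5 times. The replicate block gave 8494 higher and 9346 lower probes. Same-numbered arrays correlated at 0.070 and -0.049 in their deviations from the group means. With 2 dry arrays these deviations mirror each other, so the values cannot decide whether same-numbered arrays are paired. Pairs on 1 slide gave 0.070, 0.049 and 0.101, and pairs across slides -0.101, -0.070 and -0.049. Probes detected at 16 h and in no dry array numbered 3410 with the less strict detection flag, 2679 with a common floor on the 75th percentile scale, and 5898 to 8888 with 1 array left out. The opposite class numbered 787 with that floor, 47 with a floor common on the spike-in scale, and 22 to 204 with 1 array left out. Both floors were chosen after seeing the data. The detected probes per array, the 75th percentile against the spike-ins and the share of the brightest 100 probes kept their direction in every alternative run. Over 19 alternatives the 4 named probes kept their direction, and each lost its limma call within slide 2 only. They were chosen as extremes of these same arrays, which favours this, so it is a description and not a test. CF922282.1_553 and BG882338.1_330 moved most with normexp background, to 6.98 and -2.80 log2 of fitted change. Why the counts moved was not tested. The filter settings change which dim probes enter, and slide 2 has 1 array of each of the stages compared.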
